A study of Mus musculus with 3 samples.

Results

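The 10 genes described here link an induced enzyme of macrophage metabolism, Irg1 (later renamed Acod1), with Hif1a and 8 genes of glucose uptake and glycolysis: Slc2a1, Hk1, Hk2, Hk3, Pfkfb3, Pfkl, Pgk1 and Ldha. They were taken by gene symbol, and all 10 were found among the 22350 protein-coding genes of the annotation on chromosomes 1 to 19 and X. Pol_II carrying phosphate on serine 5 of its C-terminal repeats (Ser5) was mapped by ChIP-Seq in macrophages grown from the bone marrow of female Fvb mice in medium conditioned by L929 cells. There were 3 libraries, 1 for each condition: Ser5 from untreated cells, Ser5 from cells given lipopolysaccharide (LPS, 10 ng/ml) for 2 h, and the input, sheared chromatin DNA of untreated cells without ChIP; the labels name no transgene or mutant allele, and no input from LPS-treated cells was analysed here.

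Macrophages that sense LPS, a component of bacterial outer membranes, change their metabolism towards glucose uptake, glycolysis and lactate production. Irg1 encodes a mitochondrial enzyme that makes itaconate from cis-aconitate, an intermediate of the tricarboxylic acid cycle, and Hif1a encodes the oxygen-regulated subunit of hypoxia-inducible factor, a transcription factor of many glycolysis genes. Ser5 phosphorylation is placed on Pol_II as it begins to transcribe, so the mark is densest near transcription start sites (TSSs) and also covers the body of strongly transcribed genes.

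Each aligned tag was counted by its 5′ end, over the gene span (the whole annotated gene) and over the TSS window (1 kb on each side of the TSS), and expressed as TPM (tags scaled to 1000000 in the library), divided by the kb of the region where a density is given. Untreated Ser5 had 7616771 tags, LPS Ser5 had 6249819 and the input had 7533308. With 1 library per condition no spread between replicates could be measured and no test was made. A gene was called higher or lower where its TPM differed at least 2 times and the Ser5 libraries together held at least 10 tags, and the bracketed ranges are 95% intervals for counting error only, in which PCR copies count as separate tags. The median coding gene had an LPS-to-untreated ratio of 0.874 over its span, or -0.19 on the log2 scale, so the ratio of each gene is also read against that median. As a check of the labels, 6 of 6 LPS response genes (Tnf, Il1b, Il6, Ccl5, Ptgs2 and Nfkbia) were higher after LPS, with ratios from 6.17 to 396. Of 7 macrophage markers 6 were found in the annotation, with 1.94 to 105 TPM per kb in untreated cells and 0.444 to 42.6 after LPS. Of these, 1 was higher and 4 were lower after LPS, and the lowest, Itgam, then had 0.613 times the input. The markers of T cells, B cells, neutrophils, fibroblasts and dendritic cells had at most 0.927 TPM per kb in untreated cells and 0.897 after LPS; summed over the list, B cell markers went from 1.20 to 1.56 and erythroid markers from 3.07 to 1.28, the latter through Klf1 at 2.85 in untreated cells. In cells measured in bulk, more cells with Ser5 at a gene and more Ser5 per cell cannot be told apart.

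The sequences below are the 250 bases upstream of the most-tagged annotated TSS of 4 members, read 5′ to 3′ on the strand of the gene from the mm9 assembly. Irg1 is shown as the gene with the largest ratio (chr14:103445944-103446193, plus strand), Hif1a because its tags lay at an internal TSS (chr12:75008641-75008890, plus strand), Pfkfb3 as the gene with the smallest ratio (chr2:11423729-11423978, minus strand) and Ldha for its number of motif matches (chr7:54100959-54101208, plus strand). Capitals mark ACGTG, the core of the hypoxia response element, on either strand, where CACGTG counts on both strands.
Irg1: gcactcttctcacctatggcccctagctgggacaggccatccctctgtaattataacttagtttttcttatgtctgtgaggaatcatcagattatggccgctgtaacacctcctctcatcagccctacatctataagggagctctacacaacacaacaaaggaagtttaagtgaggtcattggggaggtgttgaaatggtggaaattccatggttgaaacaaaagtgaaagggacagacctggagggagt
Hif1a: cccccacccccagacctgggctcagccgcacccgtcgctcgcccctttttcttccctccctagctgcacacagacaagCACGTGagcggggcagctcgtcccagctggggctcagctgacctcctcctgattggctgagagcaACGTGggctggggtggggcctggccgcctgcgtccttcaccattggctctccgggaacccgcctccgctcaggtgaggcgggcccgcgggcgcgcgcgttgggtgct
Pfkfb3: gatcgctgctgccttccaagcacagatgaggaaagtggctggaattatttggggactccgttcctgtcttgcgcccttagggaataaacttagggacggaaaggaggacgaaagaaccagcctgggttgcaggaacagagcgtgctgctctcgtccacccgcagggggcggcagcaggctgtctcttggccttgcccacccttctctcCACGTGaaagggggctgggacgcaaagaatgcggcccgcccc
Ldha: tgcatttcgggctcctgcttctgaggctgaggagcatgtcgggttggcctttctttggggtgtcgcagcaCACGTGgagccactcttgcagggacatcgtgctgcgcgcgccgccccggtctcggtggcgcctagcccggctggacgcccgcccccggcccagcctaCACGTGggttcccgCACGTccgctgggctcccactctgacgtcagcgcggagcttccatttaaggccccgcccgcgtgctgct
The Irg1 promoter held no ACGTG, no NF-kB site and 1 CpG, with 45.6% GC. The Hif1a sequence held 3 matches to ACGTG and 20 CpGs, that of Pfkfb3 held 2 and 13, and that of Ldha held 5 and 26. Of the 10 members 6 had at least 1 ACGTG (Hif1a, Hk2, Hk3, Pfkfb3, Ldha and Pgk1), against 17.5% of 22350 coding promoters of the same length, and 1, Pgk1, had the NF-kB site, against 7.74%. ACGTG itself holds a CpG, and the coding promoters were not matched to the members for CpG or GC content, so these shares do not set the members apart. A match is a string of letters and does not show that a factor was bound, and no match says only that these letters were not in this window.

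Irg1 stood far above the other 9 genes. Its span (chr14:103446194-103455790, plus strand, 9597 bp) held 2146 tags in untreated cells, 35964 after LPS and 109 in the input. These counts are densities of 29.4 TPM per kb [28.1 to 30.6], 600 [593 to 606] and 1.51 [1.24 to 1.82]. The intervals of the 3 libraries did not overlap, and Irg1 was already 19.5 times [16.1 to 23.8] the input before LPS. The LPS-to-untreated ratio was 20.4 [19.6 to 21.3], or 23.4 relative to the median gene, and it ranked 27 among 17386 coding genes tested. By density over the span Irg1 moved from rank 145 of 22350 coding genes in untreated cells to rank 3 after LPS, when it took 0.575% of all Ser5 tags of the library, against 0.0282% before.

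The tags on this short gene came to occupy most of its positions. After LPS the tags occupied 11677 of 19194 possible positions and strands, or 60.8%, against 8.91% in untreated cells. Counting 1 tag for each position and strand gave a ratio of 8.64 [8.21 to 9.10], which cannot grow in proportion once most positions are taken; what part PCR copies have in the ratio of 20.4 was not tested.

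Ser5 covered Irg1 from end to end in both conditions. In untreated cells 7 deposited peaks overlapped 91.8% of the span, and after LPS 2 peaks overlapped 98.2%. The 4 segments of equal length, from the 5′ end, had ratios of 19.1, 23.0, 22.0 and 19.8. The TSS window went from 539 to 7437 tags, with 32 in the input, a ratio of 16.8 [15.4 to 18.4], and the span past that window from 1655 to 28822, a ratio of 21.2 [20.2 to 22.3]. The share of the tags in the TSS window was thus 24.6% [22.8 to 26.4] before and 20.5% [20.1 to 20.9] after LPS, intervals that did not overlap. The input share was 25.6% [18.2 to 34.2], an interval that included both Ser5 shares. The tags continued past the annotated end: the next 5 kb held 680 tags before and 6599 after LPS, a ratio of 11.8 [10.9 to 12.8], with 30 in the input. The stretch of 169 bp between both LPS peaks (chr14:103452246-103452414), within the gene, held 1 tag in each Ser5 library, and 100% of its 30-base sequences occurred more than once in the genome.

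**Figure D1:**
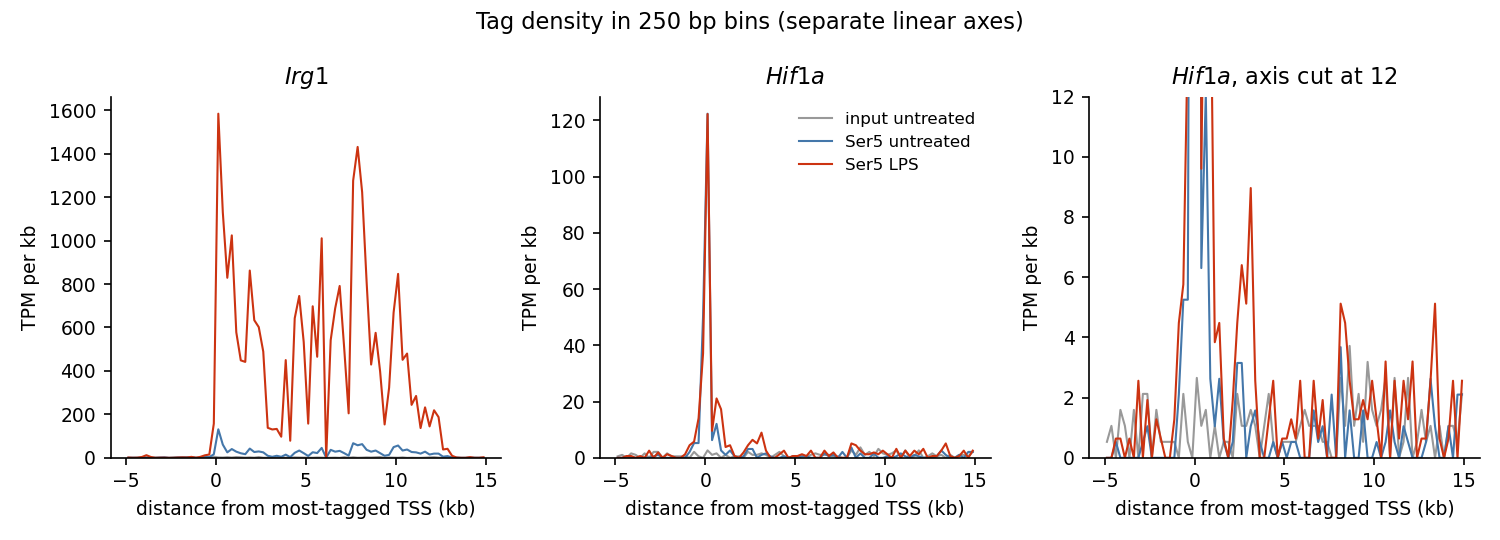
Tag density (TPM per kb, linear axes that differ between panels) in 250 bp bins against distance from the most-tagged TSS in kb, for Irg1, for Hif1a and for Hif1a with the axis cut at 12; lines are the Ser5 untreated, Ser5 LPS and input libraries. Ser5 covers Irg1 from the TSS to past its end after LPS, while at Hif1a the lines of both Ser5 libraries lie close at the TSS (ratio 1.12) and apart beyond it (ratio 2.44).

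Peaks outside genes also lay around Irg1. Within 20 kb of the gene, and at no annotated gene, 4 peaks were listed in untreated cells and 10 after LPS, and all 10 of the latter were upstream. The untreated peaks downstream, centred 11896 and 12813 bp past the TSS, did not vanish. They held 193 and 25 tags before LPS and 1436 and 121 after it. Both overlap an LPS peak that reaches into Irg1 and is therefore not counted as outside genes. The pair of upstream peaks in untreated cells had midpoints 13121 and 9621 bp before the TSS. The more distant one (chr14:103432486-103433660) held 154 tags before and 324 after LPS, with 8 in the input, a ratio of 2.56 [2.11 to 3.13]. The nearer one (chr14:103436244-103436903) held 57 and 188, with 3 in the input, a ratio of 4.02 [2.97 to 5.51]. Both ratios lay below that of the gene itself. That was not so of every peak listed after LPS alone. One such peak, 7540 bp upstream, held 4 tags before and 55 after LPS, a ratio of 16.8 [6.19 to 63.7]. Its interval included that of the gene. Another, 10213 bp upstream, held 0 and 20 tags. Both regions were bounded by peaks of the LPS library alone, a choice that favours high ratios. The farthest LPS peak lay 17648 bp upstream, with 7 tags before and 19 after. The middle 200 bases of the untreated peak 13121 bp upstream, which overlaps an LPS peak, are shown because that peak held more tags in untreated cells than the other one upstream (chr14:103432974-103433173, plus strand), all in lower case since neither motif occurs in them.
Irg1 upstream region: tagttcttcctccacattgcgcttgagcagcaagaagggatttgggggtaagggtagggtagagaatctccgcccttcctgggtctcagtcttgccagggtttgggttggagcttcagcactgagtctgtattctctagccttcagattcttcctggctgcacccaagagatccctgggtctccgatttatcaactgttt

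The upstream neighbour of Irg1, Lmo7, 1096964 bp away, had 148 tags before and 120 after LPS, a density below that of the input. The 5 coding genes nearest to Irg1 by log2 density in both Ser5 libraries were Ccl4, Ccl3, Nfkbia, Cxcl2 and Tnf, at distances of 0.21, 1.05, 1.26, 1.53 and 1.53 log2 units over these 2 libraries. Ccl4, which encodes a chemokine, had 31.6 TPM per kb before and 681 after LPS, a ratio of 21.5 [19.7 to 23.6]. Its interval overlapped that of Irg1. The genes were picked by these same densities, so a ratio like that of Irg1 follows from the choice.

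Hif1a differed between its start and its body. Its span (chr12:75002362-75048517, plus strand, overlapping the lincRNA Gm15283) held 637 tags in untreated cells, 848 after LPS and 294 in the input, a ratio of 1.62 [1.46 to 1.80], below the rule of 2 times. The TSS at the end of the gene record carried 14, 15 and 18 tags in these libraries. The annotated TSS 6529 bp further on (position 75008891) carried 393, 362 and 15. There the ratio was 1.12 [0.971 to 1.30], an interval that included 1.

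Past that window the Hif1a libraries differed. The remaining 38626 bp of Hif1a held 231 tags in untreated cells and 463 after LPS, with 239 in the input. The density before LPS was 0.956 times the input [0.794 to 1.15], not told apart from it by counting error, and after LPS 2.34 times [1.99 to 2.74]. This reading rests on the scaling to all tags: with only tags lying in neither peak list as the library size, the same values were 1.82 [1.51 to 2.19] and 4.78 [4.08 to 5.61], both above the input. The LPS-to-untreated ratio was 2.44 [2.08 to 2.87], whose interval did not overlap that of the TSS window. This region passed the rule of 2 times, and Hif1a and Irg1 were the 2 of 10 members that did so past the most-tagged window, where 6.73% of 16306 coding genes were higher and 12.4% lower. The ratio past the window was 2.18 times that inside it for Hif1a, against a median of 1.06 over 6687 coding genes with at least 50 tags in each region and library, of which 3.71% reached 2 times; this measure was chosen after the values were seen. The share of Hif1a tags in the TSS window was 63.0% [59.1 to 66.8] before and 43.9% [40.5 to 47.3] after LPS, against 5.91% in the input.

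The difference ran along the whole body of Hif1a. The 4 equal segments of the gene from its 5′ end had ratios of 1.27, 1.95, 2.86 and 2.35, and the 5 kb past the 3′ end held 95 tags before and 182 after LPS, a ratio of 2.33 [1.81 to 3.02]. The deposited lists had 2 peaks in the span in untreated cells and 11 after LPS, of which 1 and 3 had a score of at least 100 (minus 10 times log10 of the caller's p). Outside genes within 20 kb, Hif1a had 1 peak in each list. The upstream neighbour Prkch, 123190 bp away, was lower after LPS, with 1837 and 657 tags and a ratio of 0.436. It held 1327 tags in the input, and its density was 1.37 times the input before and 0.597 times after LPS.

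**Figure D2:**
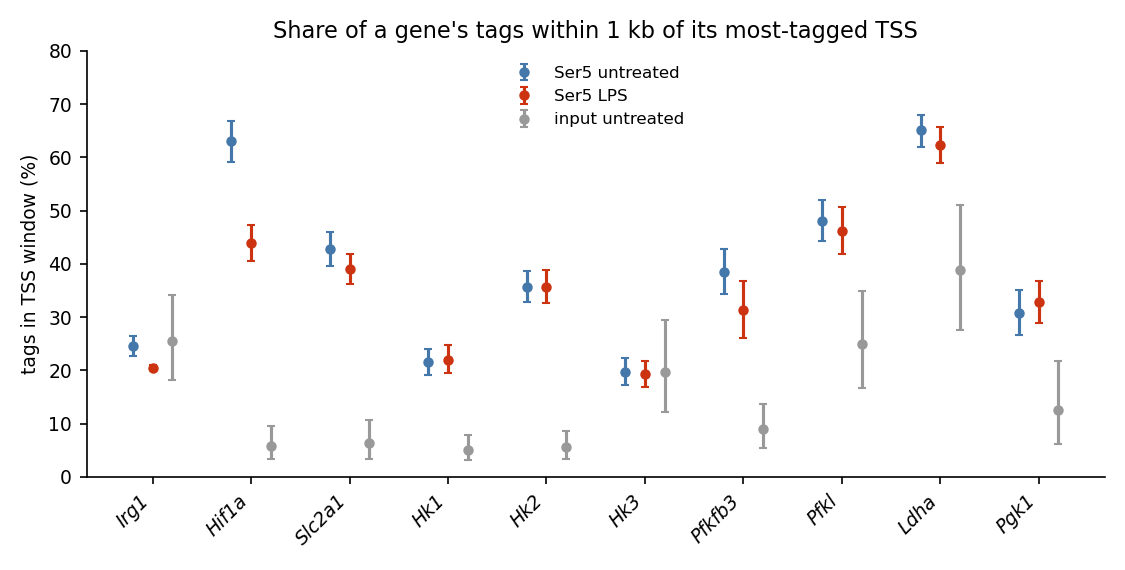
Share of each gene's tags (%, linear axis from 0) within 1 kb of its most-tagged TSS, out of the tags of that window and the rest of the span, in 1 library each of Ser5 untreated, Ser5 LPS and input; bars are exact 95% binomial intervals for counting error. Hif1a went from 63.0% to 43.9%, and of the other 9 genes Irg1 was the one whose Ser5 intervals did not overlap.

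Slc2a1, the glucose transporter of the plasma membrane, had a higher ratio all along its length, without reaching 2 times. Its span (chr4:118781316-118809935, plus strand) held 865 tags before and 1149 after LPS, with 185 in the input. The ratio was 1.62 [1.48 to 1.77], or 1.85 relative to the median gene. The TSS window held 403, 473 and 12 tags, a ratio of 1.43 [1.25 to 1.64], and none of its 4 equal segments had a ratio above 1.66. Unlike at Hif1a, the share in the TSS window, 42.8% before and 39.0% after LPS, had overlapping intervals. The listed peaks in the span numbered 9 and 13. A peak outside genes 2840 bp upstream went the other way, with 101 tags before and 53 after LPS, a ratio of 0.640 [0.450 to 0.900].

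The hexokinases, which phosphorylate glucose in the first step of glycolysis, had ratios close to 1. Hk1 (chr10:61731603-61842656, minus strand) held 1172 tags before, 1097 after LPS and 490 in the input, a ratio of 1.14 [1.05 to 1.24]. Hk2 (chr6:82675019-82724448, minus strand) held 936, 845 and 310, a ratio of 1.10 [1.00 to 1.21]. Hk3 (chr13:55107346-55122746, minus strand), which overlaps the coding gene Unc5a, held 975, 1022 and 79, a ratio of 1.28 [1.17 to 1.40]. The intervals of Hk1 and Hk2 overlapped each other, and all 3 lay above the median gene.

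The 3 hexokinase genes differed more in where their Ser5 lay than in how it moved. Of 7 annotated Hk1 start regions, that at the end of the gene record had 3, 1 and 5 tags, and the most-tagged, 39366 bp inside the gene, had 235, 227 and 19. Its share of tags was 21.5% before and 22.0% after LPS, against 5.09% in the input. A start region 52141 bp inside had 53, 82 and 20 tags, a ratio of 1.89 [1.32 to 2.72], and one 61515 bp inside had 15, 26 and 4, a ratio of 2.11 [1.08 to 4.29]; all these intervals overlapped that of the most-tagged start, 1.18 [0.977 to 1.42]. Hk2 kept 35.7% of its tags in its TSS window in both conditions, 385 and 346 tags, against 5.56% or 18 tags in the input. Hk3 had 19.8% and 19.2% there, with 200 and 207 tags. The input share at Hk3 was also 19.8%, so its tags were no more gathered at the TSS than those of the input. Its peaks overlapped 75.1% of the span before and 91.0% after LPS. The 5 kb past the 3′ end of Hk3 were denser than the gene, with 884 tags before and 581 after LPS, or 23.2 and 18.6 TPM per kb, and 15 tags in the input. Since Hk3 overlaps Unc5a, to which gene these tags belong was not tested.

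The phosphofructokinase step had the members with low ratios. Pfkfb3, whose product makes the fructose bisphosphate that activates phosphofructokinase, held 466 tags before, 290 after LPS and 195 in the input over its span (chr2:11393057-11423728, minus strand). The ratio was 0.758 [0.653 to 0.880], or 0.868 relative to the median gene with an interval that included 1 [0.747 to 1.01]. Its TSS window had 200, 96 and 18 tags, a ratio of 0.585 [0.454 to 0.750], the lowest among the 9 members tested at the TSS and not 2 times lower. A peak of the untreated list, outside genes and centred 893 bp upstream of the TSS, held 95 tags before and 29 after LPS. The ratio was 0.372 [0.237 to 0.569], and the peak reaches into the TSS window, so some tags are counted in both. The overlapping LPS peak, which is shorter, held 55 and 22 tags, a ratio of 0.487 [0.283 to 0.813].

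Pfkl, the liver-type subunit of phosphofructokinase, was close to the median gene. It held 665 tags before, 493 after LPS and 90 in the input (chr10:77449692-77472828, minus strand), a ratio of 0.904 [0.803 to 1.02]. The TSS window had 322, 225 and 19 tags, a ratio of 0.852 [0.715 to 1.01]. One peak outside genes, listed in untreated cells alone and centred 38710 bp downstream of the TSS, held 76 tags before and 6 after LPS, with 5 in the input. The ratio was 0.0962 [0.0342 to 0.219], in a region bounded by a peak of the untreated library alone, a choice that favours low ratios.

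At the later steps Pgk1 and Ldha did not move alike. Pgk1, the phosphoglycerate kinase that yields ATP, held 427 tags before, 505 after LPS and 74 in the input (chrX:103382439-103399038, plus strand), a ratio of 1.44 [1.26 to 1.64]. Its TSS window went from 152 to 183 tags, with 10 in the input, a ratio of 1.47 [1.18 to 1.83], and the first and last of its 4 equal segments had ratios of 1.75 and 1.54 against 0.993 and 1.03 between them. The upstream neighbour of Pgk1, Tlr13, was lower after LPS, with 486 and 111 tags and a ratio of 0.278.

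Ldha, the lactate dehydrogenase chain that turns pyruvate into lactate, was among the densest members before LPS and had the same density after it within counting error. Its span (chr7:54096845-54110997, plus strand) held 1019 tags before, 810 after LPS and 88 in the input, a ratio of 0.969 [0.882 to 1.06], or 1.11 relative to the median gene. The TSS at the end of the gene record had 13, 12 and 13 tags. The annotated TSS 4364 bp further on had 653, 498 and 28, a ratio of 0.929 [0.825 to 1.05]. Outside genes 7 peaks lay within 20 kb in untreated cells and 4 after LPS, most of them upstream. The peak centred 2141 bp before the gene record held 160 and 123 tags, a ratio of 0.937 [0.735 to 1.19]. The one centred 3149 bp before it held 112 and 58 tags, a ratio of 0.631 [0.451 to 0.874].

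**Figure D3:**
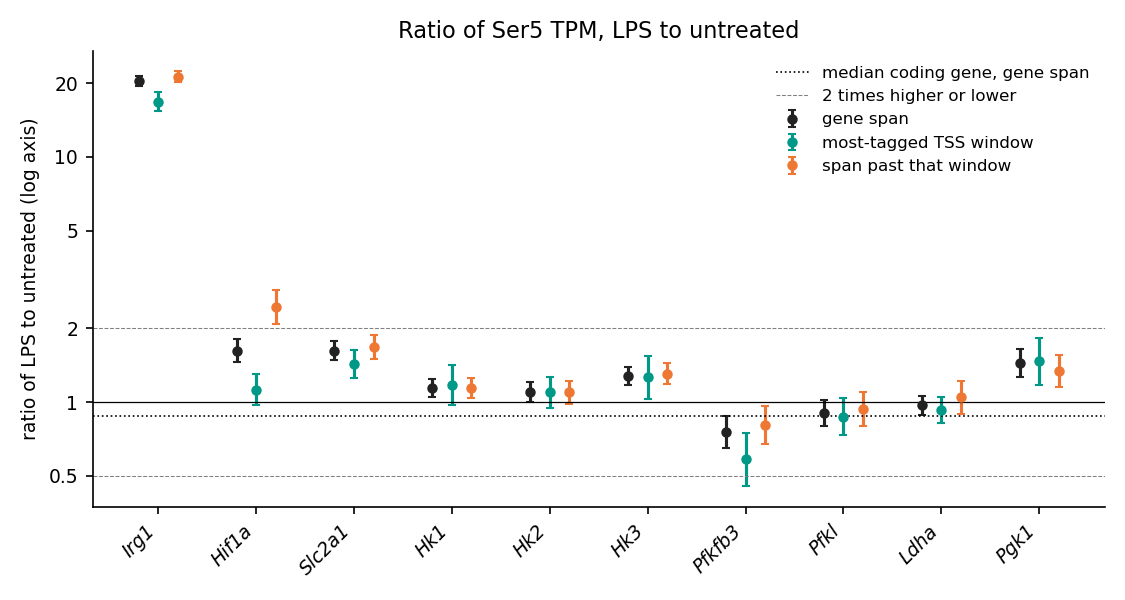
Ratio of TPM, Ser5 LPS to Ser5 untreated (log axis), for the 10 members over the gene span, the most-tagged TSS window and the span past that window; bars are exact 95% intervals for counting error, the dotted line is the median coding gene (0.874) and dashed lines mark 2 times higher or lower. Irg1 lies near 20 in all 3 regions, and Hif1a passes 2 only past the window.

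Over the gene span 1 of 10 members was higher after LPS and none was lower, where 5.83% of 17386 coding genes were higher and 11.3% were lower. Over the TSS window at the end of the gene record 1 of 9 tested members was higher and none lower, where 5.58% of 12535 coding genes were higher and 14.1% lower. In both regions the gene called was Irg1. The median ratio of the members was 1.21 over the span, and 9 of 10 lay above the median gene, 8 of them with an interval above it. By definition as many tested genes lie above the median gene as below it. The share of all coding genes with such an interval was not counted, so these counts do not set the members apart. At the end of the gene record a Ser5 peak overlapped the TSS window of 7 members in untreated cells and 8 after LPS. Of all coding genes 48% and 45.9% had one there. The member that differed was Hif1a, whose LPS list had a peak of 340 bp at the end of its gene record, with 10 tags before and 15 after LPS. Hif1a, Hk1 and Ldha, which had no untreated peak there, had peaks in both lists at their most-tagged TSS. These numbered 2 and 1 for Hif1a, 2 and 2 for Hk1, and 1 and 1 for Ldha.

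The order of the members by density had Irg1 at the top in both Ser5 libraries. In untreated cells Ldha (9.45 TPM per kb) and Hk3 (8.31) followed, then Slc2a1 (3.97), Pfkl (3.77), Pgk1 (3.38), Hk2 (2.49), Pfkfb3 (1.99), Hif1a (1.81) and Hk1 (1.39). The intervals of Slc2a1 and Pfkl, of Pfkl and Pgk1, and of Pfkfb3 and Hif1a overlapped, so these neighbours were not told apart. After LPS the order below Irg1 was Hk3 (10.6), Ldha (9.16), Slc2a1 (6.42), Pgk1 (4.87), Pfkl (3.41), Hif1a (2.94), Hk2 (2.74), Hk1 (1.58) and Pfkfb3 (1.51). There Pfkl and Hif1a, Hif1a and Hk2, and Hk1 and Pfkfb3 had overlapping intervals. The input ranged from 0.516 to 1.51 over the members, and every member exceeded its own input density in both Ser5 libraries.

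**Figure D4:**
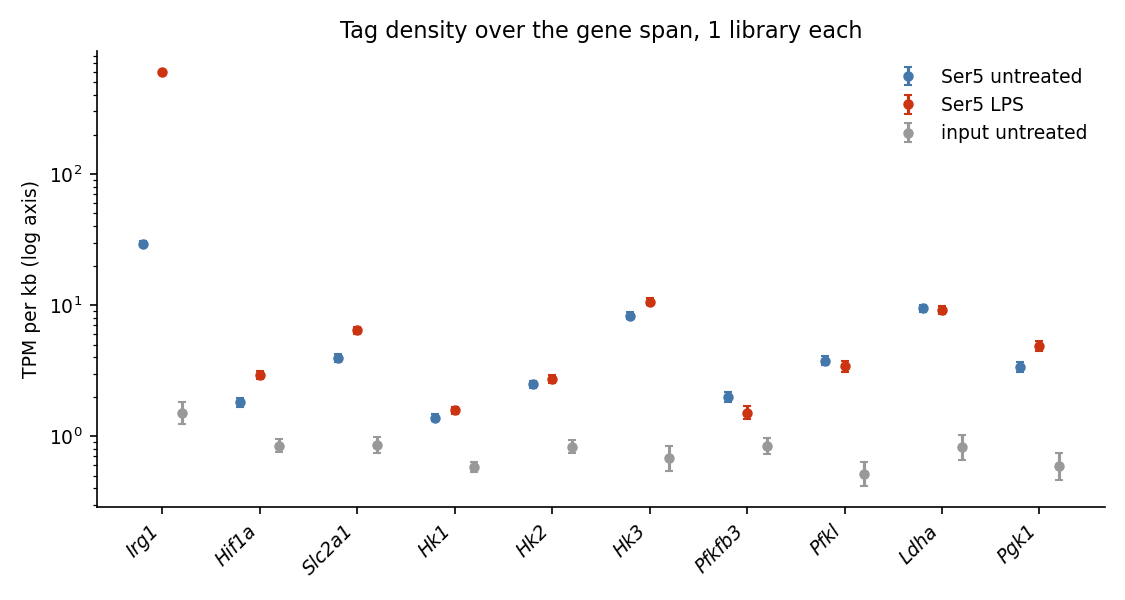
Tag density over the gene span (TPM per kb, log axis) of the 10 members in 1 library each of Ser5 untreated, Ser5 LPS and input; bars are exact 95% Poisson intervals for counting error. Irg1 goes from 29.4 to 600, and the other members lie between 1.39 and 10.6 in the Ser5 libraries.

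The other genes of these pathways, taken from lists of known function, had median ratios from 0.762 to 0.893 beside 0.874 for all coding genes. Of 20 further glycolysis and transport genes 2 were higher after LPS and 5 were lower, beside 5.83% and 11.3% of all coding genes, with a median ratio of 0.762. The higher ones were Slc2a6, a hexose transporter, with 801 tags before and 2156 after LPS and a ratio of 3.28, and Pfkp, the platelet-type phosphofructokinase, with 688 and 1476 tags and a ratio of 2.61. The lower ones were Ldhb (0.305), Pkm2 (0.430), Aldoc (0.476), Gpi1 (0.481) and Slc2a3 (0.491). Of these, Ldhb and Slc2a3 lay below the input in untreated cells on the scale of all tags, with 36 and 340 tags against 56 and 410 in the input. Pkm2, the pyruvate kinase gene, held 2514 tags before and 887 after LPS, and Slc2a3 is another glucose transporter. Slc2a1 and Slc2a6, both above the input, had ratios of 1.62 and 3.28, and Pfkl and Pfkp had 0.904 and 2.61.

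Of 23 genes of the tricarboxylic acid cycle none was higher and 2 were lower, with a median of 0.775. Both this count and the 2 of 18 lower in the HIF pathway lay no higher than the 11.3% of all coding genes, so neither sets its list apart. On the list of the cycle, Idh2 and Idh1 were called lower. Idh2, a mitochondrial isocitrate dehydrogenase, had 581 tags before and 117 after LPS, a ratio of 0.245. Idh1, its cytosolic relative, had 1078 and 386 tags, a ratio of 0.436. The other isocitrate dehydrogenase genes listed, Idh3a, Idh3b and Idh3g, were not called, with ratios of 0.618, 0.641 and 0.775. None of 7 pentose phosphate genes was called in either direction, with ratios from 0.680 to 1.44 and a median of 0.889. Of 18 genes of the HIF pathway none was higher and 2 were lower, with a median of 0.893: Epas1, which encodes another oxygen-regulated HIF subunit, with 471 tags before and 94 after LPS and a ratio of 0.243, and Egln3, a prolyl hydroxylase that marks these subunits for degradation, with 189 and 74 tags and a ratio of 0.477. Hif1a and Epas1 thus had span ratios of 1.62 and 0.243, with intervals that did not overlap. On the scale of all tags, Epas1 had 1.24 times the input before LPS and 0.301 times after it. Egln3 had 1.60 and 0.762 times. The contrast with Hif1a therefore rests on a gene that lay near its input already before LPS.

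**Figure D5:**
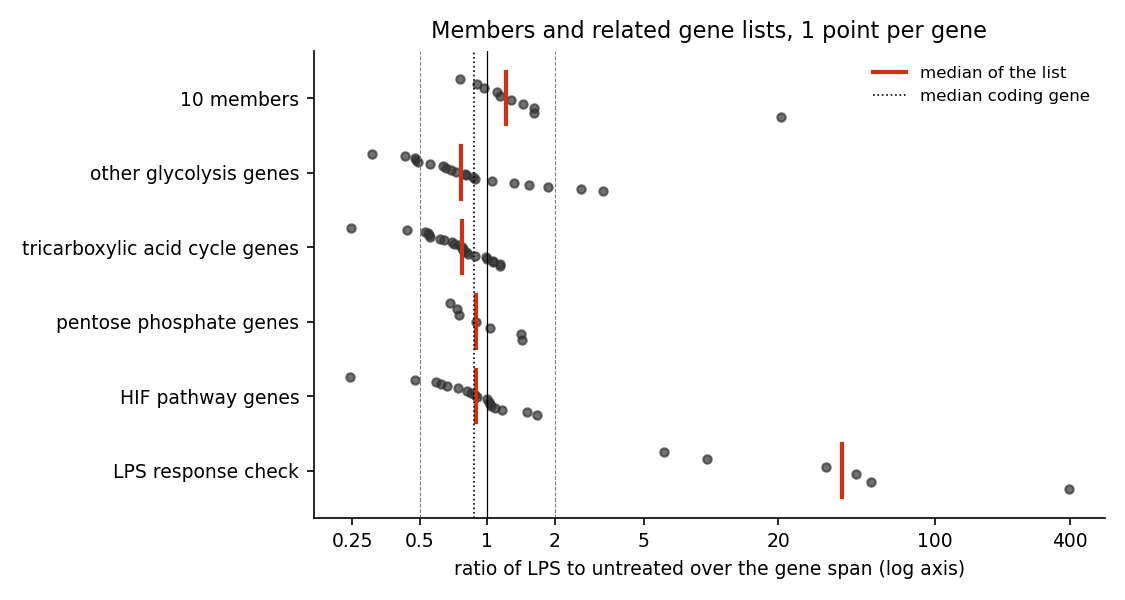
Ratio of TPM over the gene span, Ser5 LPS to Ser5 untreated (log axis), 1 point per gene, for the 10 members and 5 lists; red bars are list medians, the dotted line is the median coding gene and dashed lines mark 2 times. The members other than Irg1 lie between 0.758 and 1.62, and the LPS response genes between 6.17 and 396.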

How the data were processed

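Per the paper's methods and the labels, the authors trimmed the reads and mapped them to mm9 by Bowtie (up to 2 mismatches, only uniquely placed reads). They ran MACS for each Ser5 library, with the input as control, at a p-value limit of 1e-05. The deposited tag files hold positions and strands with duplicates kept, and the score in the deposited peak lists is minus 10 times log10 of the p-value the authors' run gave. Tags were 45 bases long for untreated Ser5, 30 for LPS and 36 for the input in the files; the methods give both Ser5 lengths the other way round. Shorter tags have fewer unique places, so members were also counted with tags whose first 30 bases occur once in the genome.

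Gene positions came from GENCODE M1 on the same assembly. Tags were counted in Python 3.11.15 with numpy 2.4.6 and scipy 1.17.1, and functions were tested on simulated data. Totals of 6249819 to 7616771 tags set the precision. Intervals (95%) are exact: Poisson for densities, conditional on the sum for ratios, Clopper-Pearson for shares. A count of 0 was set to 3 tags in a ratio. The most-tagged TSS is the annotated one with most Ser5 tags over both libraries, and the NF-kB site was searched by its usual degenerate motif on both strands. Extragenic peaks overlap no annotated gene within 20 kb of a member.

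The members and gene lists were chosen with earlier results of these data known. The rule named all 10 members, up to 6 called genes per list, the 5 genes nearest to Irg1 and neighbours where a result touched them. Counting, scaling, windows and thresholds were varied as given at the end. Spi1 was not found under that symbol. A neighbouring gene is not reported here.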

Additional observations from a re-analysis of the deposited data

How the results depend on the processing

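No paired analysis was possible because each condition had 1 library, and for the same reason no library could be left out. Irg1 was called higher over the span and the TSS window under every alternative run, with span ratios from 8.64 (1 tag per position and strand) to 22.0 (scaled to tags outside the peaks of both libraries). At a rule of 1.5 times, 3 members were higher over the span and 1 was lower over the TSS window; with no tag minimum 1 was lower over the TSS window, which is Hk1 with 4 tags in all. Of all coding genes, 2079 were higher and 4391 lower over the span at 1.5 times, and 1265 and 3701 over the TSS window. With no tag minimum 1816 were higher over the span, and 2716 higher and 3158 lower over the TSS window. With at least 50 tags 382 were higher and 1179 lower over the TSS window, and with at least 2 times the input 608 were higher and 1044 lower over the span, where fewer genes were tested. The span ratio of Ldha lay between 0.965 and 1.04 and changed its side of 1; those of the other 9 members did not. The Hif1a ratio past its TSS window, whose alternatives were chosen after seeing the data, lay between 2.44 and 2.63. Peaks with p of at most 1e-10 changed the number in the span by over 1.5 times for 6 members before and 7 after LPS, and a window of 500 bp on each side moved the share at the TSS beyond its interval for 9 members in each Ser5 library. Scaling to tags outside the peaks raised the span ratio to the input beyond its interval for all 10 members in both Ser5 libraries, and moved the median span ratio from -0.19 to -0.09 on the log2 scale. With 1 library per condition, differences near 2 times cannot be told from differences between libraries.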
